A study of Homo sapiens with 18 samples.

Results

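The 10 genes described here encode carriers of neutral and cationic amino acids across the plasma membrane or, for SLC3A2, a partner chain of such carriers. For brevity all 10 are called carriers below. They were followed in IMR90 cells, an established strain of primary human lung fibroblasts, under an oxidant and under hyaluronan (HA) of different polymer lengths. The members were picked by gene symbol from the deposited table: SLC1A4, SLC1A5, SLC3A2, SLC7A1, SLC7A5, SLC7A6, SLC38A1, SLC38A2, SLC6A9 and SLC43A1, which are 10 of the 56269 genes listed. RNA-seq was done in 6 groups of 3 replicates, 18 libraries in all. A pre-incubation of 6 h used PBS alone, cNSF-HA or fNSF-HA, the HA at 20 µg/ml. NSF-HA is the very long HA that skin fibroblasts of the naked mole-rat secrete. fNSF-HA is this material partly cut by active hyaluronidase, which was then inactivated by heat. cNSF-HA is the long control, mixed with enzyme that had been inactivated beforehand and heated likewise. In 3 of the groups the HA or PBS medium was then removed and the cells met 200 µM tert-butyl hydroperoxide (tBHP), an oxidant, for 1 h, with collection 6 h from its start. The other 3 groups were collected at the end of the pre-incubation, so that each response to tBHP below also holds the later collection and the removal of the medium, and these cannot be told apart from the oxidant. All 6 groups came from the same strain in medium with 15% serum, a culture that holds neither the immune nor the epithelial cells of a lung, and p-values measure only the spread between these libraries. The study's methods call its replicates biological in general, and the labels do not say whether those of a group were separate cultures.

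Amino acids are polar and enter cells through carriers. Some carriers accumulate their substrates with the sodium gradient, as SNAT1 (SLC38A1), SNAT2 (SLC38A2) and the glycine carrier GLYT1 (SLC6A9) do. Others swap one amino acid for another, as ASCT1 (SLC1A4), ASCT2 (SLC1A5), LAT1 (SLC7A5) and y+LAT2 (SLC7A6) do, and the latter pair reach the membrane only when bound to the CD98 heavy chain encoded by SLC3A2. CAT1 (SLC7A1) lets arginine and lysine in without exchange, and LAT3 (SLC43A1) passes large neutral amino acids by facilitated diffusion. In many cell types, transcripts of several of these carriers are raised by ATF4, the transcription factor of the amino acid and integrated stress response, which binds composite C/EBP-ATF elements.

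Because ATF4 acts at such elements, the letters TGATGNAAN were searched on both strands of the RefSeq promoter windows (GRCh38.p14), which run from 250 bases before to 50 bases after a start site. Of the 17 windows of the 10 genes, 5 held the motif, 1 each for SLC1A4, SLC1A5, SLC3A2, SLC7A1 and SLC38A1. Among all 35116 windows 3.61% held it, and 4.45% of the 27305 genes had it in any window. The 5 stretches are shown on the gene's strand because they are the only matches among the members, and capitals mark the motif or its reverse complement.
SLC1A4, chr2:64989381-64989409: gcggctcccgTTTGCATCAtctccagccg
SLC3A2, chr11:62881725-62881748: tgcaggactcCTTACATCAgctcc
SLC38A1, chr12:46266502-46266530: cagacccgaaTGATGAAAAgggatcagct
SLC7A1, chr13:29595663-29595691: ggcgcactgcTGATGAAACctggcgccgg
SLC1A5, chr19:46784893-46784921: aggaagtggcTGATGCAAGctgtccaggg
Counted from 1 at the start site, the motif began at position -8 in SLC1A4, 37 in SLC3A2, -4 in SLC38A1, 8 in SLC7A1 and -97 in SLC1A5. By the GENCODE release 29 annotation it lay in an exon of SLC3A2 and of SLC7A1, partly in an exon of SLC1A5, and in introns of SLC1A4 and SLC38A1. Apart from that of SLC7A1, the start sites of these windows lie inside the gene as GENCODE draws it. A match is a description of letters only. The windows of SLC7A5, SLC7A6, SLC38A2, SLC6A9 and SLC43A1 held no such letters.

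The libraries had 20261103 to 26287660 reads on genes (median 22526500), and no replicate pair was identical. The spread between replicates was wider with tBHP: the median within-group SD on the log2 scale was 0.0632 to 0.0702 without tBHP and 0.153 to 0.221 with it. Fibroblast transcripts were abundant, COL1A1 having 160232 to 337705 normalized counts, while KRT5, SFTPC and CDH5 were at 0 throughout. The 3 endothelial markers together had 3.73 to 14.8 normalized counts without tBHP and 13.1 to 25.1 with it, nearly all from VWF, while PECAM1 reached at most 1.14. The 4 epithelial markers together stayed between 0.977 and 9.85 normalized counts and the 3 leukocyte markers between 1.97 and 11.3. A normalized count is the number of reads on a gene divided by the size factor of its library. In bulk RNA, fewer cells of a type and less RNA per cell cannot be told apart.

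The first question was how these transcripts differed between cells with tBHP and the earlier collected cells without it. In PBS cells, 8 of the 10 carriers were higher with tBHP and 2 lower, SLC7A6 and SLC38A2 (limma, adjusted p under 0.05 over the 13686 genes averaging at least 10 normalized counts). Of all genes tested in PBS cells, 24.2% were called higher and 26.9% lower. SLC6A9 changed most, with 6.91-fold more transcript, followed by SLC1A4, SLC3A2, SLC7A5 and SLC1A5 at 3.06- to 3.77-fold and SLC38A1 at 1.97-fold. SLC43A1 and SLC7A1 moved by under 1.25-fold. The median log2 change of the 10 genes was 1.29, and that of all genes tested was 0.0043. All 10 genes passed the filter on low values.

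In cells pre-incubated with cNSF-HA, 7 carriers were called higher and 2 lower after tBHP, against 24% and 26.8% of all genes, with a median log2 change of 1.22 for the 10 carriers. In fNSF-HA cells 7 were called higher and 1 lower, against 19.2% and 22.7% of all genes, with a median of 1.23. SLC7A1 was not called in either HA group and SLC38A2 was not called in fNSF-HA cells. Each of these responses was measured against its own libraries without tBHP.

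**Figure D1:**
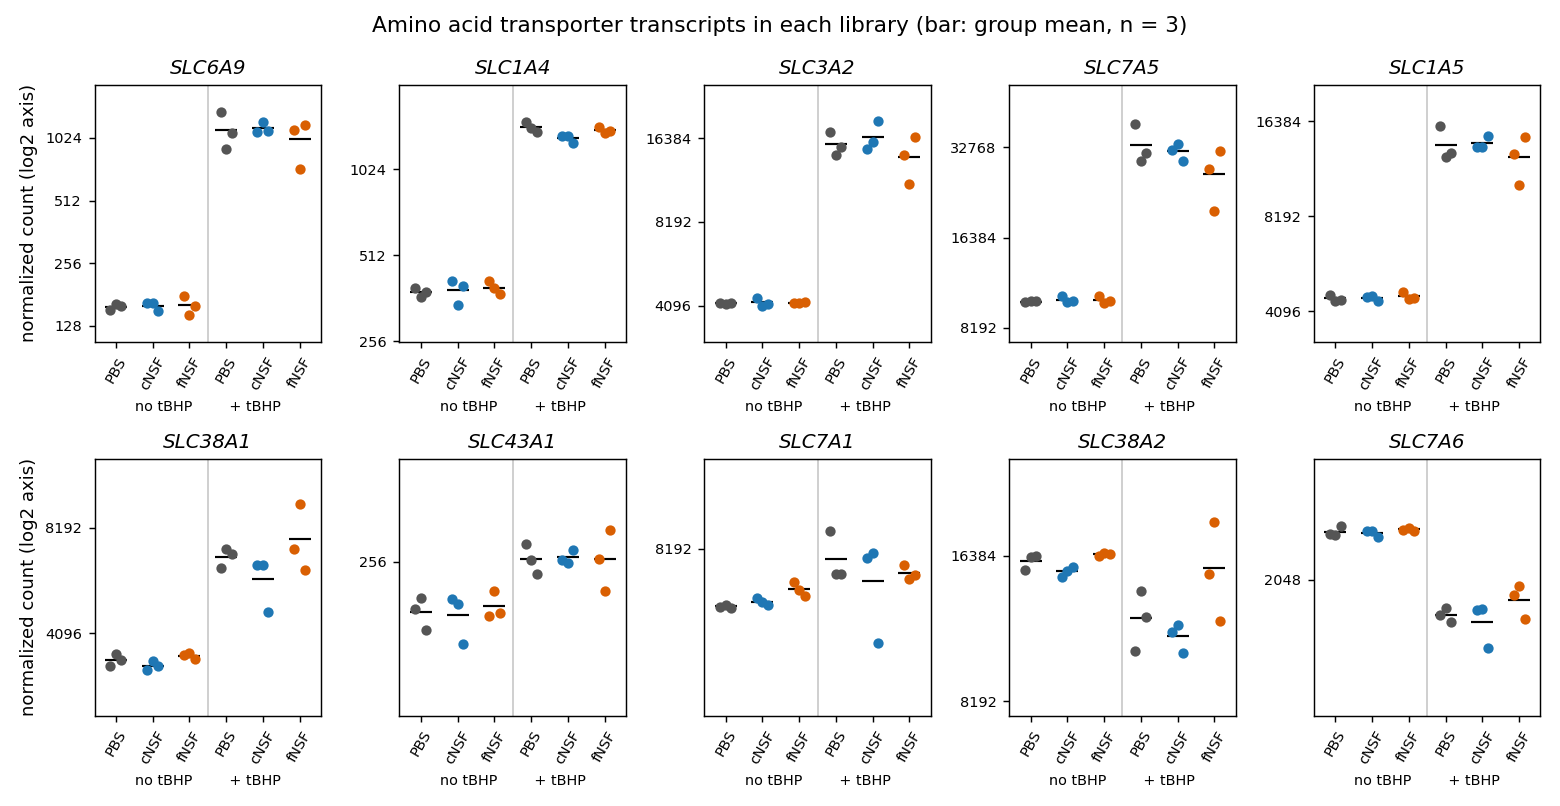
Normalized counts (log2 axis, a range of its own in each panel) of the 10 transporter genes in every library, by pre-incubation (PBS grey, cNSF-HA blue, fNSF-HA orange) without and with tBHP; points are libraries and bars are means of 3. For SLC6A9, SLC1A4, SLC3A2, SLC7A5, SLC1A5 and SLC38A1 all 9 libraries with tBHP lie above all 9 without it, and for SLC7A6 all 9 lie below. Of all genes tested, 63.8% had separate libraries with and without tBHP in PBS cells, 63.7% with cNSF-HA and 48.7% with fNSF-HA, in either direction.

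SLC3A2 (chr11:62856102-62888875, plus strand) encodes the CD98 heavy chain, the shared partner of the light chains. In PBS cells it had 4171, 4137 and 4193 normalized counts without tBHP and 17234, 14239 and 15230 with it. In cNSF-HA cells it had 4369, 4092 and 4141 without and 15016, 15902 and 18833 with the oxidant. In fNSF-HA cells the values were 4175, 4185 and 4201 without and 14281, 11185 and 16511 with it. The 9 libraries without tBHP lay within a narrow band, and every library with tBHP lay far above it. The log2 change was 1.90 in PBS cells (standard error 0.109, adjusted p = 2.31e-10 from limma), 1.97 with cNSF-HA and 1.72 with fNSF-HA, the 97th largest rise among the 13686 genes in PBS cells.

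SLC7A5 (chr16:87830023-87869488, minus strand) encodes LAT1, the light chain that carries leucine and other large neutral amino acids. It had 9989, 10045 and 10036 normalized counts in PBS cells and 39238, 29568 and 31296 after tBHP. After tBHP it had 32188, 33577 and 29616 with cNSF-HA and 27797, 20157 and 31922 with fNSF-HA, against 9923 to 10474 in the 6 HA libraries without tBHP. Its libraries with tBHP were also separate from those without it, but they differed among themselves by more than those of any pre-incubation without tBHP. The log2 change was 1.72 in PBS cells (standard error 0.122, adjusted p = 3.72e-09 from limma), 1.64 with cNSF-HA and 1.37 with fNSF-HA. SLC7A5P1, a pseudogene whose reads could be split with SLC7A5, had 3.91 to 19.4 normalized counts, a mean of 0.0444% of that of SLC7A5, and SLC7A5P2 was listed at 0.

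SLC7A6 (chr16:68264516-68301823, plus strand) encodes y+LAT2, the other light chain of the group, which exchanges cationic against neutral amino acids. It went the opposite way, from 2515, 2496 and 2602 normalized counts in PBS cells to 1756, 1804 and 1700 after tBHP. With the oxidant it had 1790, 1797 and 1511 with cNSF-HA and 1915, 1991 and 1724 with fNSF-HA, all below the 2475 to 2585 of the HA libraries without it. SLC7A6 thus fell without overlap of the groups. It fell by 0.53 on the log2 scale in PBS cells (standard error 0.071, adjusted p = 7.75e-06 from limma), by 0.58 with cNSF-HA and by 0.45 with fNSF-HA. This gene shares 3371 exonic bases with SLC7A6OS on the opposite strand, and the library kit does not mark strand, so their reads cannot be told apart in the overlap. SLC7A6OS had 543 ± 9.96 normalized counts (SD, n = 3) in PBS cells and 676 ± 39.1 after tBHP.

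Per kilobase of joined exons, the level of SLC7A5 was 2.62 ± 0.0213 times that of SLC3A2 in PBS cells and 2.33 ± 0.134 times after tBHP (SD, n = 3). The per-kilobase ratio of SLC7A6 to SLC3A2 was 0.416 ± 0.00685 in PBS cells and 0.0774 ± 0.00853 after tBHP. In cNSF-HA and fNSF-HA cells it went from 0.410 and 0.418 to 0.0711 and 0.0948. The length of SLC7A6 used here, 7588 bases, includes the 3371 shared with SLC7A6OS, and how reads there were assigned is not given. The per-kilobase level of SLC7A6, in these ratios and in the shares below, is uncertain to that extent. With the longest transcript as the length, the ratio of SLC7A5 to SLC3A2 in PBS cells was 1.18 without tBHP and 1.05 with it, so which of the pair was more abundant per kilobase could not be set firmly after tBHP.

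SLC1A5 and SLC1A4 encode ASCT2 and ASCT1, exchangers of alanine, serine, cysteine and, for ASCT2, glutamine. SLC1A5 (chr19:46774883-46788594, minus strand) had 4603, 4425 and 4451 normalized counts in PBS cells and 15831, 12594 and 12986 after tBHP. After tBHP it had 13629, 13550 and 14684 with cNSF-HA and 12929, 10310 and 14651 with fNSF-HA, while the HA libraries without it had 4419 to 4709. No library with tBHP came near a library without it. The log2 change of SLC1A5 was 1.61 in PBS cells (standard error 0.0995, adjusted p = 6.14e-10 from limma), 1.63 with cNSF-HA and 1.45 with fNSF-HA. SLC1A5 overlaps an antisense gene over 780 exonic bases.

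SLC1A4 (chr2:64988477-65023865, plus strand) was far less abundant, with 392, 367 and 381 normalized counts in PBS cells and 1499, 1429 and 1381 after tBHP. With the oxidant it had 1346, 1345 and 1269 with cNSF-HA and 1437, 1373 and 1399 with fNSF-HA, against 344 to 415 in the HA libraries without it. These were the tightest libraries with tBHP among the strongly raised carriers: the within-group SD on the log2 scale was 0.033 to 0.060. The log2 change of SLC1A4 was 1.92 in PBS cells (standard error 0.077, adjusted p = 2.43e-12 from limma), 1.77 with cNSF-HA and 1.83 with fNSF-HA. Per kilobase, SLC1A5 had 24.6 ± 0.439 times the level of SLC1A4 in PBS cells and 20.0 ± 1.85 times after tBHP (SD, n = 3).

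SLC6A9 (chr1:43991500-44031467, minus strand) encodes the glycine carrier GLYT1 and had the largest change of the 10 genes. In PBS cells it had 153, 163 and 159 normalized counts, and 1363, 907 and 1076 after tBHP. In cNSF-HA cells it had 164, 165 and 151 without tBHP and 1092, 1220 and 1109 with it. In fNSF-HA cells the values were 178, 145 and 159 without and 1115, 724 and 1180 with it. The lowest library with tBHP was still several times the highest without it. Its log2 change was 2.79 in PBS cells (standard error 0.156, adjusted p = 1.62e-10 from limma), 2.82 with cNSF-HA and 2.61 with fNSF-HA, and it ranked 34th of 13686 in PBS cells. SLC6A9 shares 404 exonic bases with CCDC24 on the other strand, which had a mean of 42.4 normalized counts.

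The SNAT pair behaved unlike each other. SLC38A1 (chr12:46183063-46270017, minus strand) encodes SNAT1 and had 3298, 3580 and 3430 normalized counts in PBS cells and 6294, 7120 and 6911 after tBHP. After tBHP it had 6393, 6403 and 4707 with cNSF-HA and 7140, 9555 and 6193 with fNSF-HA, against 3213 to 3603 in the HA libraries without it. SLC38A1 rose without overlap, by a log2 change of 0.98 in PBS cells (standard error 0.125, adjusted p = 4.90e-06 from limma), 0.80 with cNSF-HA and 1.09 with fNSF-HA.

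SLC38A2 (chr12:46358189-46372867, minus strand) encodes SNAT2, a carrier known to be raised when amino acids run short. It had 15323, 16290 and 16342 normalized counts in PBS cells and 10403, 13846 and 12213 after tBHP. In cNSF-HA cells it went from 14814, 15267 and 15532 to 11386, 11785 and 10315. In fNSF-HA cells it had 16391, 16589 and 16560 without tBHP and 15007, 19294 and 11992 with it. The PBS and cNSF-HA libraries with tBHP were all below those without it, whereas in fNSF-HA cells replicate 2 lay above the libraries without tBHP and the other 2 lay below. It fell by 0.40 on the log2 scale in PBS cells (standard error 0.122, adjusted p = 0.0104 from limma) and by 0.45 in cNSF-HA cells (adjusted p = 0.00544 from limma), and its change was -0.12 in fNSF-HA cells (adjusted p = 0.441 from limma). Without replicate 2 of the fNSF-HA cells with tBHP the change there was -0.30 (adjusted p = 0.0139 from limma), and without replicate 3 it was 0.04. In PBS cells the call was lost without replicate 1 of the cells with tBHP (log2 change -0.30, adjusted p = 0.0694 from limma).

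SLC38A2 is the transcript with the lowest GC content of the 10 (38.1%), and SLC38A1 follows at 41.3%. Once the trend with GC content and length of the transcripts was taken out of each library, the change of SLC38A2 was 0.04 in PBS cells, -0.02 with cNSF-HA and 0.14 with fNSF-HA (adjusted p = 0.413, 0.763 and 0.0102 from limma), so that the fall was lost and in fNSF-HA cells it was called higher. The same removal left SLC38A1 higher, by 1.26, 1.18 and 1.28. The per-kilobase ratio of SLC38A2 to SLC38A1 does not depend on how libraries are scaled: it was 7.06 ± 0.163 in PBS cells and 2.71 ± 0.223 after tBHP (SD, n = 3). With cNSF-HA it was 6.97 and 2.94, and with fNSF-HA 7.09 and 3.06. SLC38A2 thus remained the more abundant of the pair per kilobase, by a smaller factor with tBHP.

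**Figure D2:**
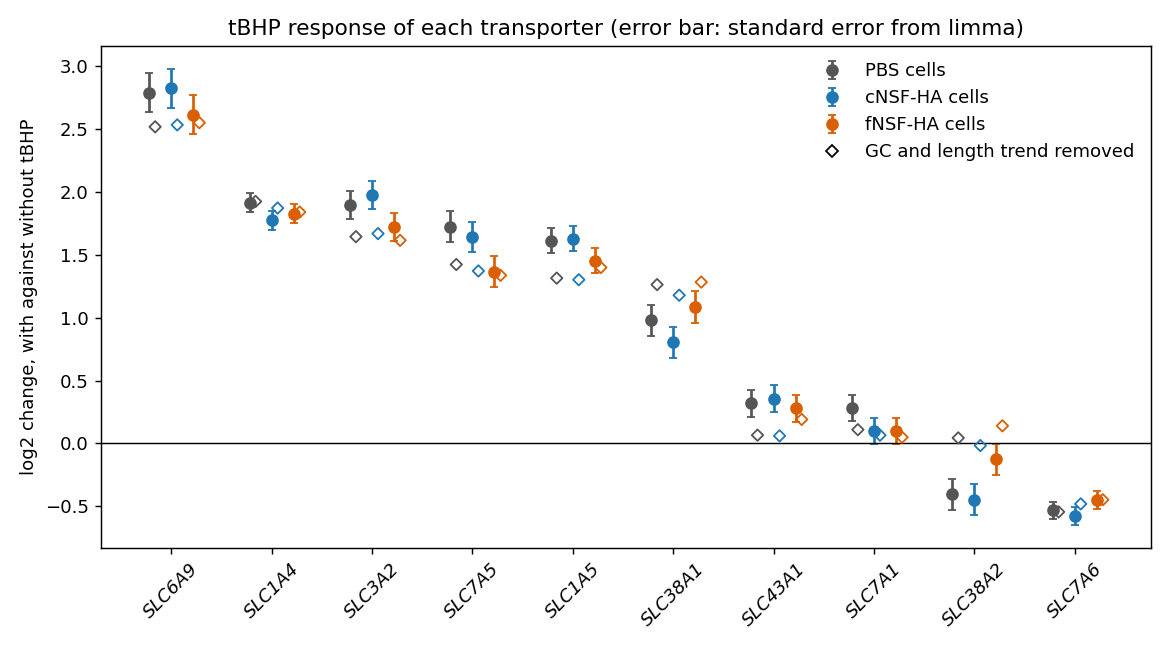
Log2 change with against without tBHP (limma, filled points with standard error) of the 10 transporters in PBS, cNSF-HA and fNSF-HA cells, and the same change once each library's trend with GC content and length of the transcripts was removed (open diamonds). The 6 carriers on the left are at 0.80 or above in every pre-incubation with and without the trend, and SLC7A6 is below 0 in both. SLC38A2 goes from negative to 0.04 in PBS, -0.02 in cNSF-HA and 0.14 in fNSF-HA cells when the trend is removed.

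SLC7A1 (chr13:29509410-29595688, minus strand) encodes CAT1, the main carrier of arginine and lysine in many cells. It had 6434, 6497 and 6401 normalized counts in PBS cells and 8805, 7358 and 7382 after tBHP. With the oxidant it had 7866, 8041 and 5536 with cNSF-HA and 7637, 7219 and 7341 with fNSF-HA, against 6473 to 6684 and 6732 to 7118 without it. The groups did not overlap in PBS and fNSF-HA cells, and in cNSF-HA cells replicate 3 with tBHP was below every library of the other groups. The log2 change was 0.28 in PBS cells (standard error 0.104, adjusted p = 0.0322 from limma), 0.10 with cNSF-HA and 0.10 with fNSF-HA (adjusted p = 0.435 and 0.481 from limma). The call in PBS cells was lost without any 1 of the PBS libraries or without replicate 1 with tBHP (adjusted p = 0.0650 to 0.164 from limma), with no filter on low values (0.0676) and with quantile normalization (0.0639), and a call was gained in cNSF-HA cells without replicate 3 with tBHP, at 0.27 (adjusted p = 0.00302 from limma).

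SLC43A1 (chr11:57484534-57515786, minus strand) encodes LAT3 and was a low transcript, with 210, 220 and 192 normalized counts in PBS cells and 276, 258 and 243 after tBHP. After tBHP it had 258, 255 and 269 with cNSF-HA and 259, 227 and 293 with fNSF-HA, against 181 to 227 in the HA libraries without it. The groups did not overlap in PBS and cNSF-HA cells and overlapped by less than 1 count in fNSF-HA cells. The log2 change was 0.32 in PBS cells, 0.35 with cNSF-HA and 0.28 with fNSF-HA (adjusted p = 0.0190, 0.0107 and 0.0442 from limma). The calls of this gene were not firm. In PBS cells it was lost without PBS replicate 3 (0.27) or replicate 1 with tBHP (0.27), and in cNSF-HA cells without replicate 3 of the cells without tBHP (0.27). In fNSF-HA cells it was lost without any of 4 libraries, namely replicates 1 and 3 with or without tBHP (0.19 to 0.28). It was also lost there with no filter on low values, with only the compared groups and with the replicate number as a block (adjusted p = 0.0883, 0.128 and 0.0525 from limma).

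With the GC and length trend removed, 7 carriers were called in PBS cells, 7 with cNSF-HA and 8 with fNSF-HA, against 57.8%, 56.6% and 56.1% of all genes with a GC value. SLC6A9, SLC1A4, SLC3A2, SLC7A5, SLC1A5 and SLC38A1 were then higher by 1.18 to 2.55 in the 3 pre-incubations and SLC7A6 lower, at -0.45 to -0.54. SLC43A1 (0.06 to 0.19) and SLC7A1 (0.05 to 0.11) were not called. The removal also takes away whatever part of a tBHP response itself follows GC content.

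The second question was whether HA length altered these transcripts. Without tBHP no carrier was called between cNSF-HA and fNSF-HA (0%), between cNSF-HA and PBS (0%) or between fNSF-HA and PBS (0% of all genes), and none of the 10 had an unadjusted p under 0.05. Log2 differences ran from -0.12 to 0.00411 for cNSF-HA minus fNSF-HA, from -0.07 to 0.03 for cNSF-HA minus PBS and from 0.00687 to 0.10 for fNSF-HA minus PBS. Over all genes, 206, 126 and 109 had an unadjusted p under 0.05 in these comparisons. SLC38A2 was the widest of the cNSF-HA minus fNSF-HA differences, at -0.12, with 14814 to 15532 against 16391 to 16589 normalized counts. SLC38A2, SLC38A1 and SLC7A1, 3 of the 10, had separate cNSF-HA and fNSF-HA libraries without tBHP, against 25% of all genes. When only the 6 HA libraries without tBHP entered the fit, with their narrower spread, SLC38A2 was the single carrier called, against 7.16% of all genes.

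After tBHP, no carrier was called between cNSF-HA and fNSF-HA cells by limma (0% of all genes), although 4 of the 10 and 4412 of the 13686 genes had an unadjusted p under 0.05. SLC38A2 and SLC38A1 had the widest differences, cNSF-HA minus fNSF-HA being -0.44 (95% interval -0.70 to -0.18) for SLC38A2 and -0.38 (-0.64 to -0.11) for SLC38A1 on the log2 scale, each with adjusted p = 0.0981 from limma. SLC7A5 and SLC3A2 differed by 0.28 (0.02 to 0.54) and 0.26 (0.03 to 0.49) in the other direction, with adjusted p = 0.130 and 0.122 from limma. As in every comparison of the main fit, these intervals and p-values rest on 1 spread shared by all 18 libraries. For SLC38A2 in fNSF-HA cells, the SD on the log2 scale was 0.343 with tBHP and 0.00939 without it. Comparisons after tBHP may thus look more certain than their own libraries allow. The differences of SLC6A9, SLC1A5, SLC43A1, SLC7A1, SLC1A4 and SLC7A6 were between -0.15 and 0.21. SLC38A2 and SLC1A4 were the carriers with separate cNSF-HA and fNSF-HA libraries, 3 against 3, and 13.4% of all genes tested had such separate libraries. DESeq2 on the recovered reads called SLC38A2 (-0.46, adjusted p = 0.0313), against 7.37% of the 10767 genes it kept.

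This comparison rested on single libraries with tBHP. Without replicate 3 of the fNSF-HA cells, limma called 6 carriers, SLC3A2 (0.39), SLC7A5 (0.42) and SLC1A5 as higher and SLC38A1 (-0.52), SLC38A2 (-0.61) and SLC7A6 as lower in cNSF-HA cells, against 40.8% of all genes. Without any other library none of the 10 was called. Without replicate 2 of the fNSF-HA cells all 6 differences were smaller in size than with all libraries, that of SLC7A5 being 0.09. Among the 9 libraries with tBHP, replicate 2 of the fNSF-HA cells was the highest for SLC38A1, SLC38A2 and SLC7A6, at 0.52, 0.61 and 0.17 above their mean on the log2 scale. It was the lowest for SLC3A2, SLC1A5, SLC6A9, SLC7A5 and SLC43A1, at -0.45, -0.38, -0.56, -0.58 and -0.19, whose transcripts have 57.4% to 61.3% GC. Replicate 3 of the cNSF-HA cells lay at -0.50 for SLC38A1, -0.30 for SLC38A2 and 0.31 for SLC3A2, but also at -0.42 for SLC7A1 (52.7% GC) and -0.03 for SLC7A5 (61.1% GC). With the GC and length trend removed, the cNSF-HA minus fNSF-HA differences were -0.17 for SLC38A2, -0.13 for SLC38A1, 0.02 for SLC3A2 and -0.03 for SLC7A5. The part of GC content in these differences was not tested beyond that.

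**Figure D3:**
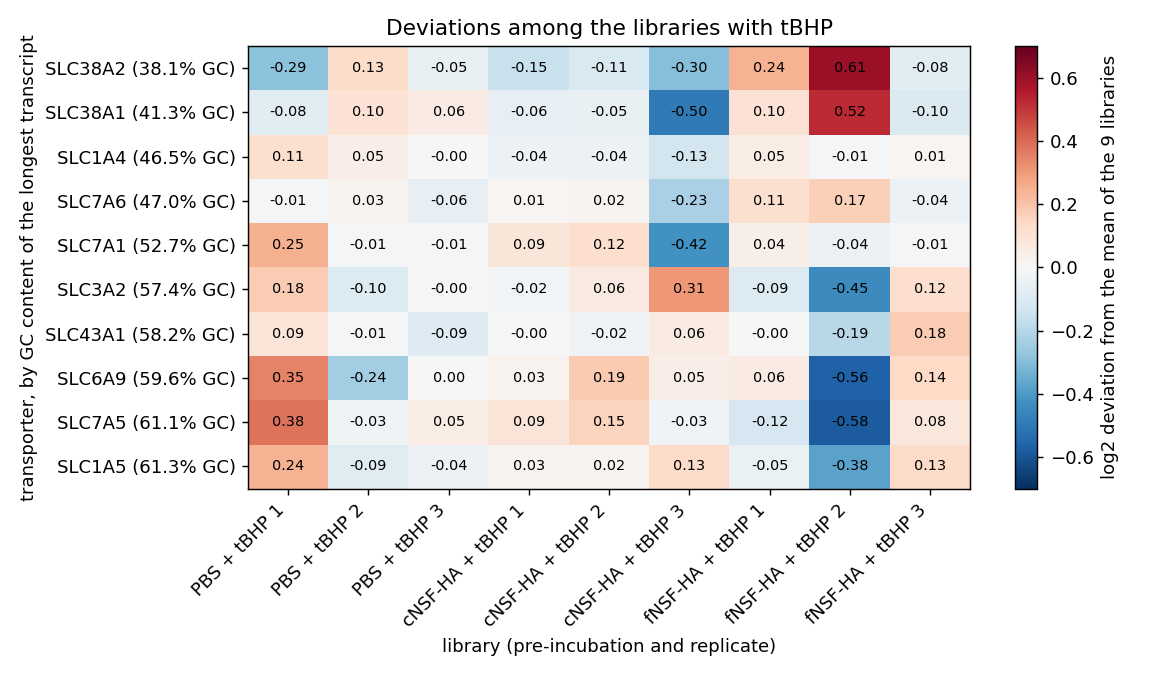
Deviation of each library with tBHP from the mean of the 9 (log2, colour and printed value) for the 10 transporters, ordered from low (top) to high (bottom) GC content of the longest transcript. Replicate 2 of the fNSF-HA cells runs from 0.61 for SLC38A2 to -0.58 for SLC7A5 near the bottom, while replicates 1 and 3 of the same pre-incubation lie between -0.12 and 0.24.

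Between cNSF-HA and PBS cells after tBHP, no carrier was called (0%) and none had an unadjusted p under 0.05. The differences ran from -0.23 for SLC38A1 (95% interval -0.49 to 0.04) to 0.09 for SLC3A2 (-0.14 to 0.32), with a smallest adjusted p of 0.610 from limma. Of all genes, 1183 had an unadjusted p under 0.05 there. Between fNSF-HA and PBS cells after tBHP, again no carrier was called, against 0.139% of all genes, and 2 had an unadjusted p under 0.05. The 2 carriers were SLC7A5 at -0.34 (95% interval -0.60 to -0.08, adjusted p = 0.146 from limma) and SLC38A2 at 0.33 (0.07 to 0.58, adjusted p = 0.155 from limma). Without replicate 3 of the fNSF-HA cells with tBHP, 4 carriers were called there, against 29.4% of all genes: SLC38A2 higher (0.50), and SLC7A5 (-0.48), SLC3A2 and SLC1A5 lower. When replicate 2 of these cells was left out instead, the differences of SLC38A2 and SLC7A5 were smaller in size than with all libraries, and neither was called. With the GC and length trend removed, SLC7A5 was at -0.05 and SLC38A2 at 0.11.

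The tBHP responses themselves were then compared between pre-incubations as interactions, and no carrier passed in any of the 3 pairs (0%, 0% and 0% of all genes called). For cNSF-HA minus fNSF-HA the differences of the log2 responses ran from -0.32 for SLC38A2 (95% interval -0.69 to 0.04) to 0.28 for SLC7A5 (-0.09 to 0.64), with a smallest adjusted p of 0.710 from limma. For fNSF-HA minus PBS the widest was SLC7A5 at -0.36 (-0.72 to 0.00463, unadjusted p = 0.0527 and adjusted p = 0.667 from limma). For cNSF-HA minus PBS they lay between -0.18 and 0.08. Hence SLC7A1 and SLC38A2, called in PBS cells and not in every HA group, were not shown to respond differently between pre-incubations: their cNSF-HA minus PBS and fNSF-HA minus PBS differences were -0.18 and -0.18 for SLC7A1 and -0.04 and 0.28 for SLC38A2. Over all genes, 533 had an unadjusted p under 0.05 for cNSF-HA minus fNSF-HA, 555 for cNSF-HA minus PBS and 942 for fNSF-HA minus PBS.

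Levels of different carriers were compared per kilobase of joined exons, as a share of the summed level of the 10 genes in each library. In PBS cells SLC38A2 had 29.005% ± 0.773 and SLC7A5 25.3% ± 0.164, followed by SLC1A5 at 16.2% ± 0.499 (SD, n = 3). SLC7A1 at 10.04% ± 0.112 and SLC3A2 at 9.64% ± 0.117 came next, then SLC38A1 at 4.11% ± 0.138 and SLC7A6 at 4.01% ± 0.0825, whose spreads overlap. SLC43A1 (0.703% ± 0.0497), SLC1A4 (0.656% ± 0.0272) and SLC6A9 (0.368% ± 0.00955) made up the rest, and SLC43A1 and SLC1A4 did not differ beyond their spread. The order depends on the length used: with the longest transcript SLC3A2 had 17.3%, above SLC1A5 at 14.4% and SLC7A1 at 8.11%.

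After tBHP in PBS cells the order was SLC7A5 at 38.0% ± 2.15, SLC1A5 at 22.4% ± 0.676 and SLC3A2 at 16.3% ± 0.357, and the share of SLC38A2 had come down to 10.1% ± 2.27 (SD, n = 3). The sum that these shares refer to rose from 8346 ± 78.4 to 18447 ± 1779 normalized counts per kilobase. SLC38A2 itself went from 2421 ± 86.9 to 1841 ± 261 per kilobase. SLC7A1 had 5.53% ± 0.0762, SLC38A1 3.70% ± 0.561 and SLC7A6 1.26% ± 0.126. SLC6A9 at 1.16% ± 0.135 and SLC1A4 at 1.13% ± 0.0710 did not differ from SLC7A6 or from each other beyond their spread, and SLC43A1 was last at 0.398% ± 0.0228. By this length SLC7A5 took the first place that SLC38A2 held without tBHP. With the longest transcript as the length, SLC7A5 and SLC3A2 had 29.9% ± 1.83 and 28.6% ± 0.578 after tBHP, within their spread, and SLC1A5 had 19.5% ± 0.690. With cNSF-HA the mean shares of SLC3A2 and SLC7A5 were then 30.8% ± 3.39 and 28.9% ± 1.92, and with fNSF-HA 27.7% ± 2.44 and 25.7% ± 3.20. Both gaps lay within their spread. Per library, the ratio of SLC7A5 to SLC3A2 by this length was 0.770 to 1.05 with cNSF-HA and 0.883 to 0.953 with fNSF-HA.

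SLC3A2 was compared with every other gene tested by the Euclidean distance between log2 profiles, each centred on its own mean over the 18 libraries. The nearest 3 of 13685 genes were UNKL, SMOX (spermine oxidase) and MSC, at distances of 0.309, 0.370 and 0.490. SLC1A5 ranked 18th, SLC1A4 20th and SLC7A5 25th, at 0.681, 0.699 and 0.759. The next carriers were SLC6A9 at rank 268 and SLC38A1 at rank 544. SLC7A11, another light chain of the CD98 heavy chain, ranked 561. SLC43A1 ranked 2605, SLC7A1 4652, SLC38A2 10303 and SLC7A6 11204. The ranks are a description: libraries with and without tBHP form separate clusters, and a gene that rose about as much as SLC3A2 lies near it.

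Of 40 other amino acid transporter genes listed, 17 passed the filter on low values, 23 did not and 7 of these were at 0 in all libraries. SLC7A8 passed only through its libraries with tBHP, so the filter fixed its direction and it was left out of the counts, a choice made after its values were seen. In PBS cells 7 of the other 16 were called higher, 5 lower and 4 not, against 24.2% and 26.9% of all genes called higher and lower, with a median log2 change of 0.05. In cNSF-HA cells the counts were 7, 5 and 4, against 24% and 26.8% of all genes. In fNSF-HA cells they were 6, 4 and 6, against 19.2% and 22.7%.

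The 5 with the smallest adjusted p in PBS cells were SLC6A6, SLC7A11, SLC7A2, SLC43A2 and SLC38A7. SLC7A11, the light chain of the cystine-glutamate exchanger that feeds glutathione synthesis, had 1400 ± 120 normalized counts in PBS cells and 8935 ± 1242 after tBHP (SD, n = 3), log2 changes of 2.67, 2.48 and 2.93 in PBS, cNSF-HA and fNSF-HA cells. SLC6A6, the taurine carrier, had 1231 ± 35.9 and 4130 ± 126, with changes of 1.75, 1.57 and 1.69. SLC7A2, which encodes the cationic carrier CAT2 and is related to SLC7A1, fell instead, from 2897 ± 61.9 to 974 ± 57.1 in PBS cells, with changes of -1.57, -1.51 and -1.44. SLC43A2, which encodes LAT4 and is related to SLC43A1, had 35.1 ± 5.78 and 88.3 ± 13.4, with changes of 1.31, 0.66 and 1.16. SLC38A7 had 678 ± 25.4 and 994 ± 68.0, with changes of 0.55, 0.41 and 0.32. These 15 changes each had an adjusted p under 0.05 from limma. None of the 17 was called between HA groups or between HA and PBS.

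**Figure D4:**
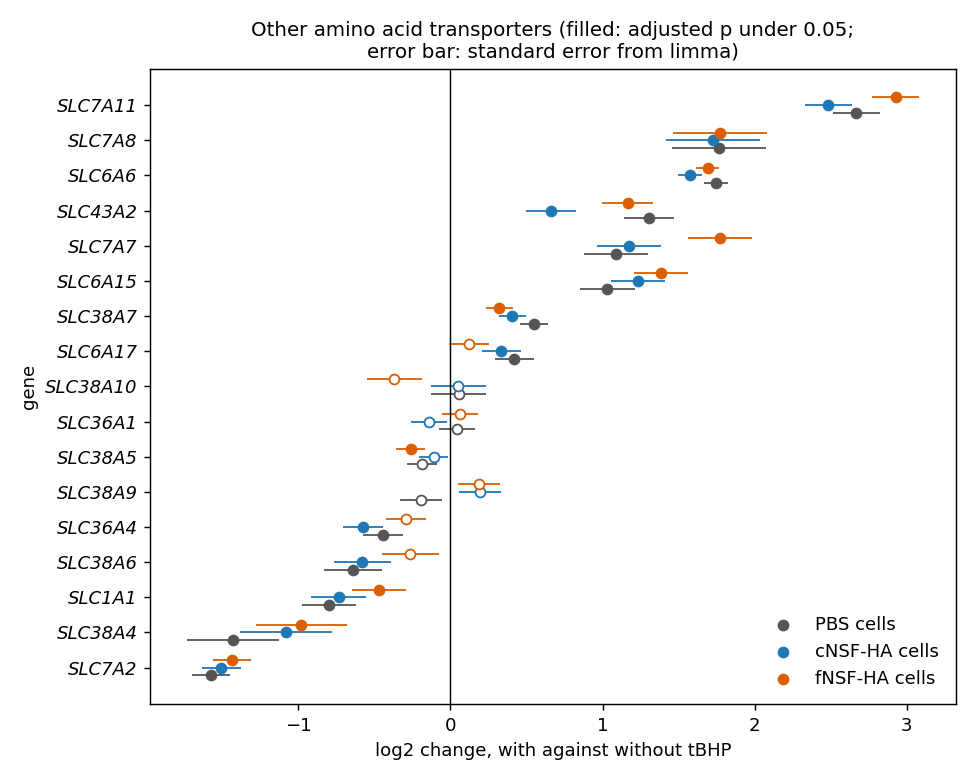
Log2 change with against without tBHP (limma, bars are standard errors) of the 17 other amino acid transporter genes tested, in PBS (grey), cNSF-HA (blue) and fNSF-HA (orange) cells; filled points have an adjusted p under 0.05. SLC7A11 is highest, between 2.48 and 2.93, and SLC7A2 lowest, between -1.57 and -1.44.

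The ATF4 programme was followed through 12 genes, written from common knowledge and without any transporter among them. The list was drawn up with earlier results of these data known, so its count is a description and no independent evidence of a direction. All 12 passed the filter and were called higher after tBHP in PBS, in cNSF-HA and in fNSF-HA cells, with median log2 changes of 2.24, 2.35 and 2.22, where 24.2%, 24% and 19.2% of all genes were called higher. ATF4 itself had 5504 ± 88.4 normalized counts in PBS cells and 14518 ± 670 after tBHP (SD, n = 3), a log2 change of 1.40, and 1.43 and 1.38 in cNSF-HA and fNSF-HA cells. ASNS, which makes asparagine, had 1733 ± 65.8 and 5387 ± 471, changes of 1.63, 1.73 and 1.87. DDIT3, the stress factor CHOP, had 177 ± 23.1 and 1347 ± 155, changes of 2.92, 3.04 and 3.11. None of the 12 was called in any comparison between pre-incubations. Whether ATF4 acted on the carriers was not tested.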

How the data were processed

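Total RNA of IMR90 cells was extracted with Trizol, libraries were made with the TruSeq RNA V2 kit and sequenced as single-end reads of 100 nt on an Illumina HiSeq. The submitters' processing notes name Trimmomatic 0.32, STAR 2.5.2b, featureCounts of Subread 1.5.0-p3, DESeq2 and the build GRCh38.p7; the annotation release and the strand setting are not given in the sources used here. The authors deposited 1 table with a signal per gene and library, the read count divided by the DESeq2 size factor. Its values were whole multiples of 1 read in every library (100% within 0.01 read), so reads could be recovered. The deposited p-value, q-value and ranking columns hold the authors' own comparison and were not used.

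The test on log2(value + 1) used limma 3.58.1 under R 4.3.3 (a linear model per gene, empirical Bayes with a mean-variance trend, 18 libraries, 1 coefficient per group, two-sided) for the 13686 genes with a mean of 10 or more, with Benjamini-Hochberg adjustment over all of them and a threshold of 0.05. Fold changes are on the log2(value + 1) scale, which understates changes of low genes. The 12 contrasts were 3 responses, 6 comparisons of pre-incubations and 3 interactions, which share libraries with each other. The same scripts were tested on simulated data. Alternatives were pseudocounts of 0.1 and 5, no filter, a minimum mean of 50, rescaling by the median log2 ratio, quantile normalization, the replicate number as a block, removal of each library's trend with GC content and length of the transcripts (natural splines, 5 degrees of freedom, GENCODE release 29, 12521 genes or 91.5%), only the compared groups, edgeR 4.0.16 and DESeq2 1.42.0 on recovered reads, and each library left out in turn. In the response of PBS cells, edgeR called 4058 genes higher and 3223 lower, DESeq2 3467 and 3714, and limma 3317 and 3678.

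The replicate numbers were not taken as pairs: deviations of 45 same-numbered library pairs correlated at -0.12 to 0.33 (median 0.034), 7 of them above 0.1. Gene coordinates are those of GENCODE release 29 (GRCh38), and promoter windows come from RefSeq on GRCh38.p14. All 10 members are named. Of the other transporters the 5 with the smallest adjusted p in PBS cells are named, and of the ATF4 list ATF4, ASNS and DDIT3. The members and the lists were chosen with earlier results of these data known.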

Additional observations from a re-analysis of the deposited data

How the results depend on the processing

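The tBHP response of the 10 carriers kept its direction and its side of the threshold in 506 of 540 recomputed values. It was past the threshold no longer in 27, newly past it in 2 and opposite in 5. The 6 differences after tBHP with an unadjusted p under 0.05 (4 of cNSF-HA against fNSF-HA, 2 of fNSF-HA against PBS) were newly past the threshold in 7 of 108 recomputed values and opposite in 2. The opposite responses were all of SLC38A2: 0.044 in PBS cells and 0.14 in fNSF-HA cells with the GC and length trend removed, with or without the replicate block, and 0.043 in fNSF-HA cells without replicate 3 with tBHP, where leaving out 1 library gave -0.30 to 0.043. The number of carriers called when 1 library was left out ran from 7 to 10 for the response with PBS, from 8 to 10 with cNSF-HA and from 7 to 9 with fNSF-HA. With all libraries, 24.2% of all genes were called higher and 26.9% lower in PBS cells. These shares were 24% and 26.8% with cNSF-HA, and 19.2% and 22.7% with fNSF-HA. The shares for each library left out of a response, or with a block, are not given here. After tBHP the number of carriers ran from 0 to 6 for cNSF-HA against fNSF-HA and from 0 to 4 for fNSF-HA against PBS. The 6 and the 4 stood against 40.8% and 29.4% of all genes. The number was 0 throughout for the other comparisons and the interactions. Between cNSF-HA and fNSF-HA, DESeq2 called 1 carrier with tBHP, against 7.37% of its genes. The fit of the compared groups called 1 without tBHP, against 7.16%. SLC7A5 between cNSF-HA and fNSF-HA after tBHP changed sign to -0.028 with the GC and length trend removed, with or without the block. With the replicate number as a block, 10, 9 and 7 carriers were called in PBS, cNSF-HA and fNSF-HA cells, SLC43A1 being lost in fNSF-HA cells (adjusted p = 0.0525 from limma), and no other call changed. With the longest transcript as the length, the shares in PBS cells were 20.4% for SLC7A5, 14.4% for SLC1A5, 17.3% for SLC3A2 and 30.2% for SLC38A2, and after tBHP 29.9%, 19.5% and 28.6% for SLC7A5, SLC1A5 and SLC3A2. The causes of these changes were not tested. With 3 libraries a group, the median SD within a group with tBHP was 0.153 to 0.221 on the log2 scale.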
